A study of Homo sapiens with 6 samples.

Results

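Transcript levels of 8 genes of the vitamin D system were followed in 3 related human breast cancer lines. The genes were CYP2R1, CYP27A1 and CYP27B1, which activate vitamin D, CYP24A1, which inactivates it, the receptor genes VDR, RXRA and RXRB, and CAMP, a target gene. They are 8 of 18417 genes that had an array feature (a transcript cluster) with a single gene symbol. The topic was chosen by the measured difference of CYP24A1 between 231BoM-1833 and MDA-MB-231, so its values are described without a test, and the other 7 genes were taken for their place in the pathway. Where a gene had more than 1 cluster, which among these 8 held only for RXRB, the cluster with the highest mean over the 6 arrays was used.

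MDA-MB-231 is a triple-negative breast cancer line with mesenchymal features. It is the parent of 231BoM-1833, selected for growth in bone, and of 231BrM-2a, selected for growth in brain. The labels name no drug or gene change for any line, all were grown in RPMI-1640 with fetal bovine serum and antibiotics, and magnetic sorting kept the CD24-/CD44+/ESA+ fraction of each (ESA is the product of EPCAM), a profile used to enrich cancer stem cells. Each line was measured on 2 arrays, labelled as biological replicates, and the design set each derivative against the parental line. Nothing in the labels ties the replicates to separate cultures, so the p-values reflect only how far these samples spread, and some of that spread may be technical. Each derivative is a single selected line, so a difference belongs to that line and cannot be told apart from drift between cultures.

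Vitamin D made in skin or taken up with food is inert until it has been hydroxylated. CYP2R1 and CYP27A1 add the hydroxyl group that gives the circulating form, and CYP27B1 adds the next, which gives the hormone calcitriol. Calcitriol binds VDR, which pairs with a retinoid X receptor such as RXRA or RXRB and acts on target genes. CYP24A1, itself among the genes most strongly induced by that receptor pair, hydroxylates the side chain of the hormone and of its precursor and so ends their action. It is abundant in kidney and is found raised in some carcinomas.

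The arrays gave log2 values after RMA normalisation, with medians between 6.58 and 6.64. The 3 pairs of replicate arrays had correlations across clusters of 0.9935 to 0.9959, above the 0.9666 to 0.9832 of the 12 pairs that crossed lines (a description, since clusters are not replicates). VIM, a mesenchymal filament gene, lay between 12.30 and 12.92 on the 6 arrays, and was lower in 231BrM-2a than in MDA-MB-231 (1.3-fold, adjusted p = 0.0294, lost when any 1 array of those lines was left out), while ESR1 (5.0 to 5.24), PGR (4.48 to 4.80) and CDH1 (5.19 to 5.96) had low values. Of the sort markers, EPCAM differed between the 2 arrays of 231BoM-1833 (8.32 and 7.28), as did CD24 (6.49 and 5.76) and CD44 (12.17 and 11.82). CD44 was lower in 231BrM-2a than in 231BoM-1833 (1.46-fold, adjusted p = 0.014, lost without 231BoM-1833 replicate 1 or either 231BrM-2a array), and 0 of the 3 sort markers passed the test against MDA-MB-231 (0 at an unadjusted p under 0.05 in 231BoM-1833 and 1 in 231BrM-2a). No level below which a gene is not expressed was given with the values, so a low value cannot be read as presence or absence, and levels are compared only within a gene. In these bulk samples, fewer cells with a transcript and less of it per cell cannot be told apart.

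CYP24A1 was high only on the arrays of the bone-selected line. On the MDA-MB-231 arrays CYP24A1 read 5.61 and 5.12 (mean 5.36 ± 0.35 SD, n = 2), on the 231BoM-1833 arrays 9.00 and 8.77 (8.89 ± 0.16), and on the 231BrM-2a arrays 5.41 and 6.29 (5.85 ± 0.62). Both 231BoM-1833 arrays lay above all others, and the 231BrM-2a arrays overlapped those of MDA-MB-231. The difference of 231BoM-1833 from MDA-MB-231 was 3.52 ± 0.26 (log2 ± SE), or 11.5-fold, and ranked 4 among the 21214 clusters ordered from the highest difference down. The difference of 231BrM-2a from MDA-MB-231 was 0.48 ± 0.26, with a 95% interval of -0.11 to 1.07. It rests on 231BrM-2a replicate 2, since without that array it was 0.044 and without replicate 1 it was 0.92. The difference of 231BrM-2a from 231BoM-1833 was -3.04, or 8.22-fold lower. In the order of the line means, MDA-MB-231 and 231BrM-2a are neighbours whose arrays overlap. That does not show them to be alike, since the interval reaches 2.11-fold.

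**Figure D1:**
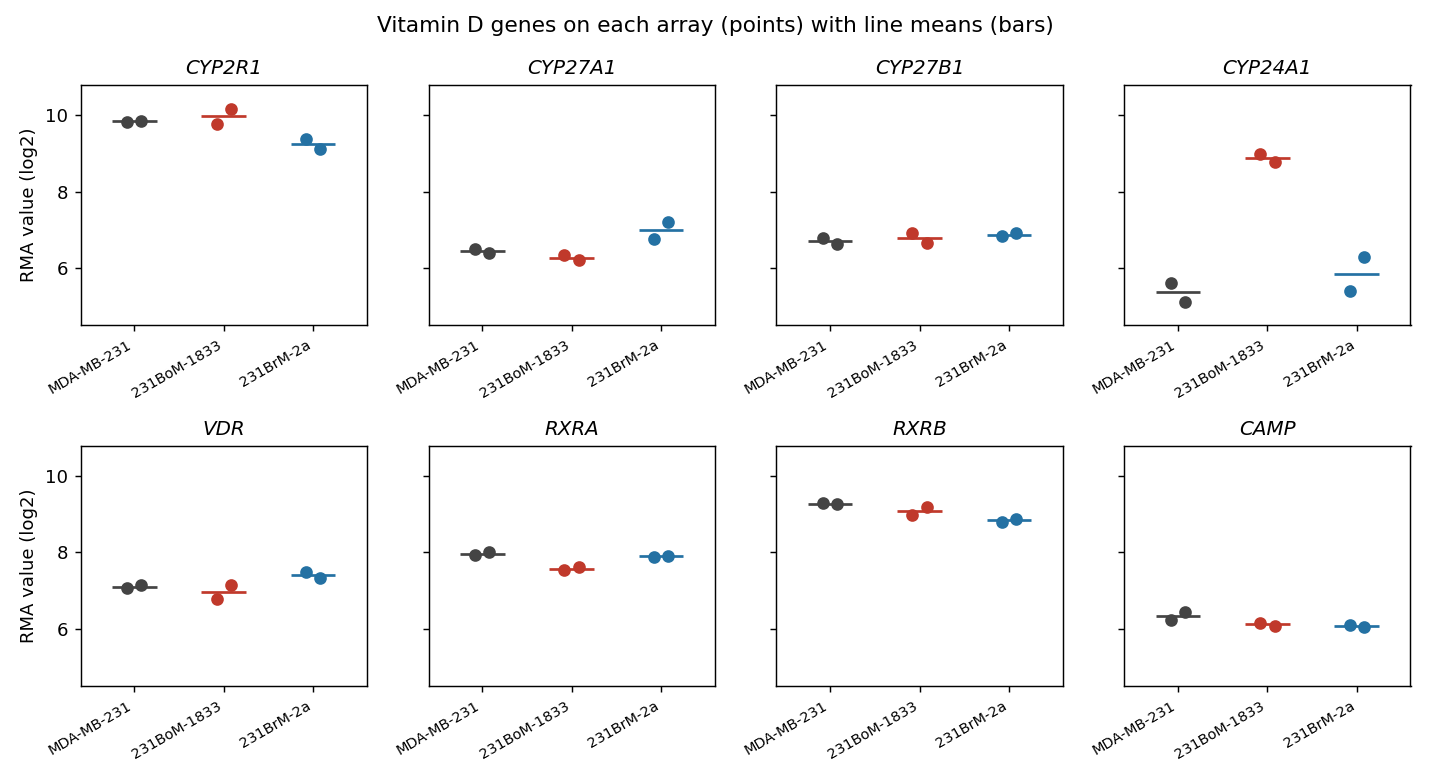
RMA values (log2) of the 8 vitamin D genes on each of the 6 arrays, with 1 panel per gene, points for the 2 arrays of a line and bars for the line mean. CYP24A1 stands at 8.77 and 9.00 in 231BoM-1833 and at 6.29 or below elsewhere, while in the other panels the line means differ by less than 1 log2 unit (values of different genes are not comparable).

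Of the enzymes that activate vitamin D, CYP2R1 fell and CYP27A1 rose in the brain-selected line. CYP2R1, the microsomal enzyme held to be the main maker of the circulating form, read 9.84 and 9.85 on the MDA-MB-231 arrays, 9.78 and 10.18 on the 231BoM-1833 arrays, and 9.39 and 9.12 on the 231BrM-2a arrays. Both 231BrM-2a arrays lay below all others. CYP2R1 was lower in 231BrM-2a than in MDA-MB-231 with a log2 change of -0.60 ± 0.15, or 1.51-fold (limma, adjusted p = 0.0233). Against 231BoM-1833 the change was -0.73 ± 0.15, or 1.66-fold (adjusted p = 0.00715). Between 231BoM-1833 and MDA-MB-231 the groups overlapped, and the difference of 0.13 had an interval of -0.20 to 0.47 (adjusted p = 0.578).

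CYP27A1, a mitochondrial sterol hydroxylase that also serves bile acid synthesis, went the other way. It read 6.50 and 6.40 on the MDA-MB-231 arrays, 6.33 and 6.22 on the 231BoM-1833 arrays, and 6.76 and 7.21 on the 231BrM-2a arrays. Both 231BrM-2a arrays lay above all others, and they differed from each other more than the arrays of either other line. CYP27A1 was higher in 231BrM-2a than in MDA-MB-231 by 0.54 ± 0.15, or 1.45-fold (adjusted p = 0.0344), and higher than in 231BoM-1833 by 0.71 ± 0.15, or 1.64-fold (adjusted p = 0.00781). In 231BoM-1833 the arrays lay just below those of MDA-MB-231, with a difference of -0.17 and an interval of -0.51 to 0.16 (adjusted p = 0.46).

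CYP27B1, the enzyme that makes calcitriol, had nearly level values. It read 6.78 and 6.64 in MDA-MB-231, 6.91 and 6.66 in 231BoM-1833, and 6.83 and 6.91 in 231BrM-2a. The 3 differences lay between 0.07 and 0.16, none passed the test (adjusted p = 0.74, 0.395 and 0.652), and the intervals ran from -0.21 to 0.43 at the widest. In 231BoM-1833, therefore, CYP24A1 stood 11.5-fold higher while none of the 3 activating enzymes passed the test.

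The stretches upstream of the activating genes that moved in the brain-selected line are shown because CYP2R1 and CYP27A1 changed in opposite directions there. Each is the 250 bases before a transcription start given by RefSeq in build GRCh38.p14, read 5′ to 3′ on the strand of the gene, with capitals for the hexamer AGGTCA and for the variants AGTTCA as well as GGGTCA as well as GGTTCA, of the kind that VDR and other nuclear receptors bind, on either strand. The CYP27A1 stretch lies at chr2:218781897-218782146 on the plus strand and the CYP2R1 stretch, before the outermost of 3 listed starts, at chr11:14892444-14892693 on the minus strand.
CYP27A1: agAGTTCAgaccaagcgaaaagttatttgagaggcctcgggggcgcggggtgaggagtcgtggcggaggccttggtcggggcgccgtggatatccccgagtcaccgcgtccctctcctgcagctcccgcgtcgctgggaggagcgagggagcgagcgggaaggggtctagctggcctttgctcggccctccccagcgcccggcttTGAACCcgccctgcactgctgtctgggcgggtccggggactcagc
CYP2R1: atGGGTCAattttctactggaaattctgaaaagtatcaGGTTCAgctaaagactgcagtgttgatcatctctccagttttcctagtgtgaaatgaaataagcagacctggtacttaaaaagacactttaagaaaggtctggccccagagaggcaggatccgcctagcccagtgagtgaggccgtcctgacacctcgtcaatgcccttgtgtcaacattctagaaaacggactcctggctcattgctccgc
The CYP27A1 stretch held 2 of these hexamers and the printed CYP2R1 stretch held 2, while those before the other CYP2R1 starts held 1 and 0. The CYP2R1 stretch with the most was printed. Over all 35116 stretches of that length in the table, 33.8% held at least 1 (12.1% AGGTCA, 8.8% AGTTCA, 12.1% GGGTCA and 7.16% GGTTCA), so their presence is common. A direct repeat of hexamers spaced by 3 bases, the arrangement typical of VDR, was in 0.0655% of all stretches and in 0 of the 9 listed for members. These stretches cover 5 of the 8 members (CAMP, CYP27A1, CYP2R1, RXRA and RXRB). A match of letters is a description and not a binding site.

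The receptor genes differed by small amounts. VDR read 7.06 and 7.14 in MDA-MB-231, 6.78 and 7.16 in 231BoM-1833, and 7.49 and 7.32 in 231BrM-2a. The 231BrM-2a arrays lay above the other 4, but VDR did not pass the test against MDA-MB-231 (0.30 ± 0.14, adjusted p = 0.17) or against 231BoM-1833 (0.43 ± 0.14, interval 0.12 to 0.75, adjusted p = 0.0532). The latter passed in 3 of 14 alternatives, among them with the dimmest 33.3% of clusters left out (adjusted p = 0.0442) and without 231BoM-1833 replicate 2 (0.0126). Against MDA-MB-231, VDR in 231BoM-1833 differed by -0.13, with an interval of -0.45 to 0.19 (limma, adjusted p = 0.563). The upper end of that interval, which rests on 2 arrays per line, is a 1.14-fold increase.

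RXRA, a partner of VDR and of many other nuclear receptors, fell in the bone-selected line. It read 7.94 and 8.0 in MDA-MB-231, 7.54 and 7.61 in 231BoM-1833, and 7.89 and 7.91 in 231BrM-2a. Both 231BoM-1833 arrays lay below the other 4. The change from MDA-MB-231 was -0.40 ± 0.10, or 1.32-fold (adjusted p = 0.0302), and 231BrM-2a was higher than 231BoM-1833 by 0.33 ± 0.10, or 1.26-fold (adjusted p = 0.045). Each of these RXRA calls was lost when any 1 of the 6 arrays was left out (adjusted p = 0.0524 to 0.165 and 0.0697 to 0.181).

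RXRB, another form of the partner receptor, fell in the brain-selected line. It read 9.30 and 9.27 in MDA-MB-231, 8.97 and 9.19 in 231BoM-1833, and 8.81 and 8.89 in 231BrM-2a, with no overlap between lines. The change from MDA-MB-231 to 231BrM-2a was -0.44 ± 0.11, or 1.35-fold (adjusted p = 0.0261). This call was lost when any 1 array of MDA-MB-231 or 231BrM-2a was left out (adjusted p up to 0.142). That from MDA-MB-231 to 231BoM-1833 was -0.20 ± 0.11 (adjusted p = 0.249) and that between the derivatives -0.23 ± 0.11 (adjusted p = 0.181). The 3 clusters of RXRB, which lies in the MHC region and is repeated in alternative versions of it, differed by at most 0.083 on an array, and all 3 gave the same calls.

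CAMP, which encodes the antimicrobial peptide cathelicidin and is a classical target of VDR in human cells, did not pass the test in any comparison. It read 6.23 and 6.43 in MDA-MB-231, 6.15 and 6.08 in 231BoM-1833, and 6.11 and 6.05 in 231BrM-2a. The arrays of both derivatives lay below those of MDA-MB-231. The difference was -0.22 in 231BoM-1833 (interval -0.47 to 0.04, adjusted p = 0.216) and -0.25 in 231BrM-2a (adjusted p = 0.151). A rise of CAMP beyond 1.03-fold in 231BoM-1833 lies outside its interval.

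**Figure D2:**
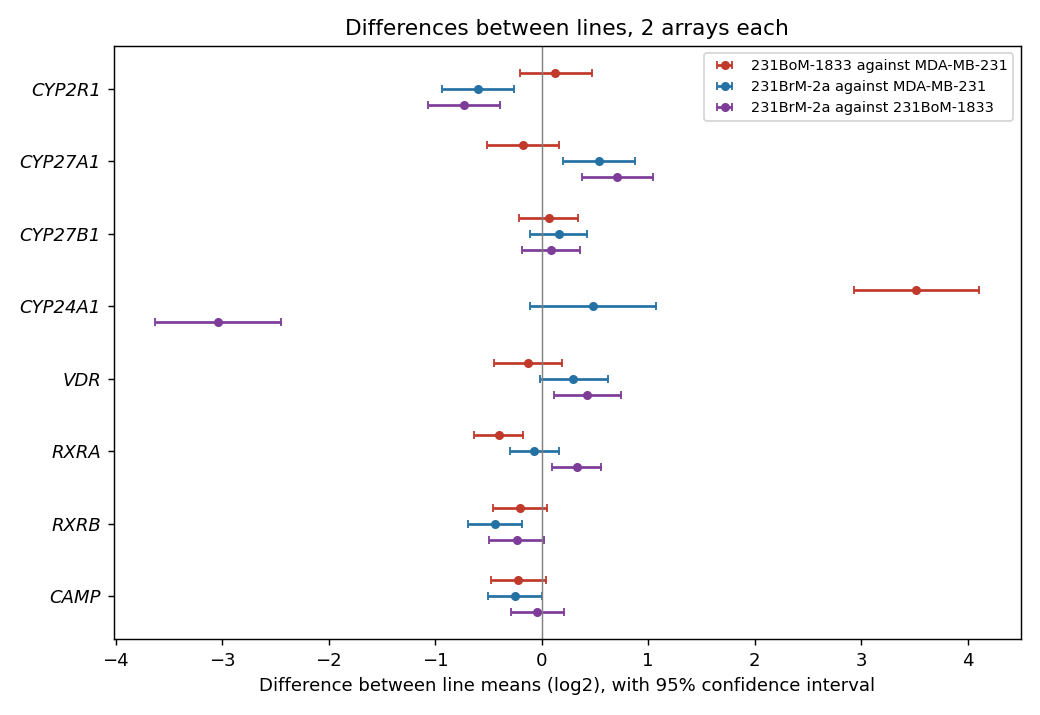
Differences between line means (log2) for the 8 genes in the 3 comparisons, with bars for the 95% confidence interval from the fit to all 6 arrays. The CYP24A1 differences of 231BoM-1833 from MDA-MB-231 (3.52) and of 231BrM-2a from 231BoM-1833 (-3.04) are the largest, and all other differences lie between -0.73 and 0.71. CYP24A1 chose the topic, so its intervals are drawn as a description and are not a test.

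Counted together, 1 of the 7 tested members was called between 231BoM-1833 and MDA-MB-231 (RXRA, lower), 0 were higher, and 0 were higher at an unadjusted p under 0.05. In that comparison limma called 15.8% of the 21214 clusters, 8.43% higher and 7.38% lower. Between 231BrM-2a and MDA-MB-231, 3 of 7 were called, CYP27A1 higher and CYP2R1 and RXRB lower, beside 19% of all clusters, 10.5% higher and 8.59% lower. Between the derivatives, 3 of 7 were called, CYP27A1 and RXRA higher and CYP2R1 lower in 231BrM-2a, beside 23.5% of all clusters, 12.5% higher and 11% lower. The list counts that follow are read beside these shares for the same comparison. The median change of the 7 was -0.17, -0.07 and 0.09 in the 3 comparisons, and that of all clusters was -0.05, -0.05 and 0.01. The comparisons with MDA-MB-231 share its arrays. All member calls against MDA-MB-231 were lost without MDA-MB-231 replicate 1 or replicate 2, those in 231BrM-2a also without its replicate 2 (RXRB also without its replicate 1), and those of CYP2R1 and CYP27A1 against 231BoM-1833 without 231BrM-2a replicate 2 (adjusted p = 0.0658 and 0.0567).

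Of 28 measured genes known to be induced through VDR, 3 rose, 0 fell and 25 did not pass the test in 231BoM-1833 (5 rose and 1 fell at an unadjusted p under 0.05), with a median change of -0.03. This count is read beside the 8.43% of all clusters that were called higher there. NRIP1, a nuclear receptor corepressor gene, rose from 8.94 ± 0.054 to 9.85 ± 0.10, or 1.88-fold (adjusted p = 0.00143). CD14, a receptor for bacterial lipopolysaccharide, rose 1.84-fold (adjusted p = 0.00219), and G0S2, an inhibitor of lipid breakdown, 1.47-fold (adjusted p = 0.039). The call of G0S2 held only when 231BoM-1833 replicate 2 was left out, and was lost without any 1 of the other 5 arrays (0.36 without 231BoM-1833 replicate 1). Of the 28 genes, 12 had differences above 0. The calcium channel gene TRPV6 (means of 4.55 in MDA-MB-231 and 4.36 in 231BoM-1833) had a difference of -0.20 (limma, adjusted p = 0.468). That of the calcium-binding protein gene S100G (3.78 and 3.78) was -0.01 (adjusted p = 0.983). At such low values a difference may be compressed, so these genes do not show that targets of VDR were unmoved. The 25 were a mix of genes with low and with higher values. CDKN1A (0.69, adjusted p = 0.0936) and THBD (0.30, adjusted p = 0.0882) lay higher but did not pass the test. The CDKN1A difference was 1.18 without 231BoM-1833 replicate 2 and 0.21 without replicate 1. TXNIP, first described as a protein raised by vitamin D, read 13.14 and 13.60 in MDA-MB-231 and 13.01 and 11.40 in 231BoM-1833, a difference of -1.17 that did not pass the test (adjusted p = 0.083). Replicate 2 of 231BoM-1833 carries that value, since it was -0.36 without that array and -1.97 without replicate 1, where it passed.

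In 231BrM-2a, 2 of the 28 genes rose relative to MDA-MB-231 and 5 fell (3 and 6 at an unadjusted p under 0.05), with a median of -0.12. The shares of all clusters called there were 10.5% higher and 8.59% lower. LRP5, a Wnt co-receptor gene, rose 2.67-fold, from 8.10 ± 0.094 to 9.52 ± 0.18 (adjusted p = 0.000113). G0S2 fell 2.98-fold, from 10.13 ± 0.19 to 8.55 ± 0.081 (adjusted p = 0.000186), and THBD, the thrombin receptor that restrains clotting, 2.77-fold, from 10.10 ± 0.11 to 8.63 ± 0.015 (adjusted p = 4.42e-05). Between the derivatives 3 were higher and 6 lower in 231BrM-2a (4 and 6 at an unadjusted p under 0.05), beside 12.5% and 11% of all clusters. Among them G0S2 was 4.38-fold lower (adjusted p = 1.92e-05), THBD 3.40-fold lower (adjusted p = 7e-06) and LRP5 2.97-fold higher (adjusted p = 3.42e-05). The 5 genes that fell numbered 3 without either MDA-MB-231 array or 231BrM-2a replicate 1. The 2 that rose numbered 1 without MDA-MB-231 replicate 2 or 231BrM-2a replicate 2, and the 3 that rose in 231BoM-1833 numbered 5 without its replicate 2 and 2 without any 1 of the other arrays. Without replicate 1 of 231BoM-1833, 1 gene fell there.

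**Figure D3:**
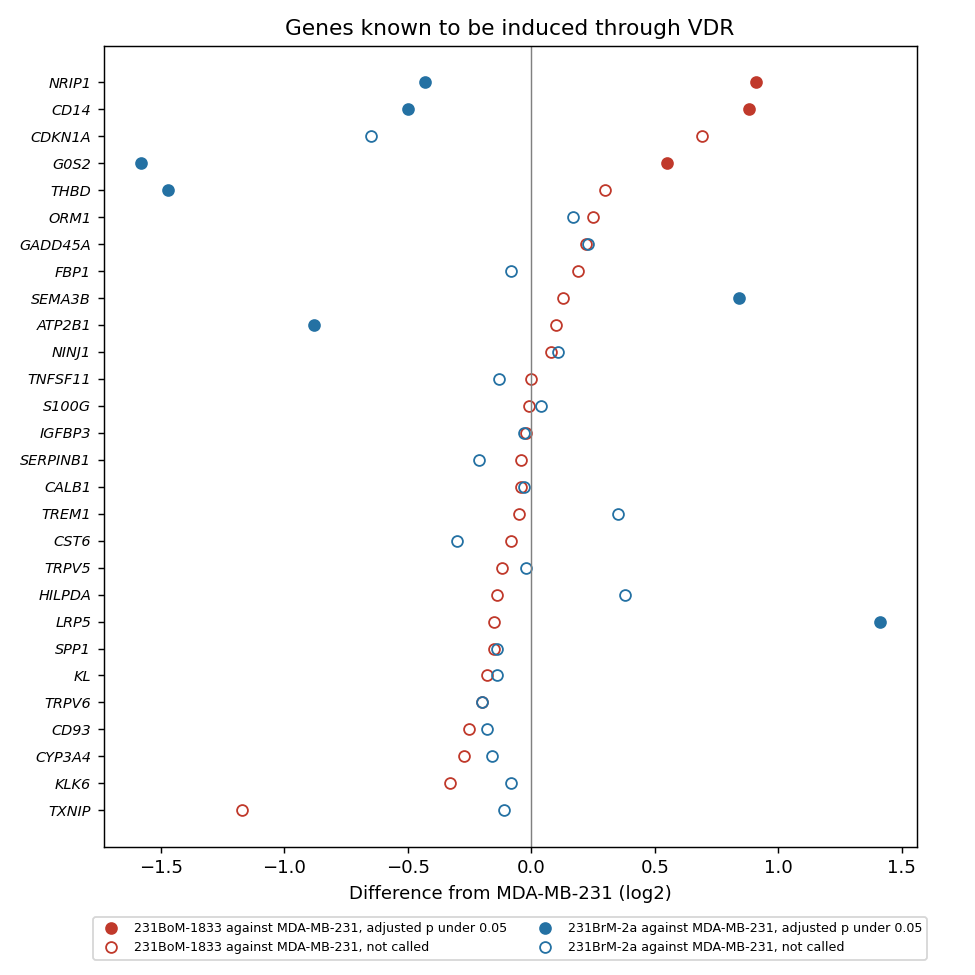
Differences from MDA-MB-231 (log2) of 28 genes known to be induced through VDR, in 231BoM-1833 (red) and 231BrM-2a (blue), ordered by the former, with filled points for an adjusted p under 0.05. In 231BoM-1833 3 genes are called (NRIP1, CD14 and G0S2, at 0.91, 0.88 and 0.55), and these 3 are lower than MDA-MB-231 in 231BrM-2a, as are THBD and ATP2B1 (the calls of CD14 and NRIP1 in 231BrM-2a were lost without either MDA-MB-231 array or 231BrM-2a replicate 1, and that of NRIP1 also without replicate 2).

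Of 3 measured genes (of 6 listed) that VDR is known to repress, 0 rose and 0 fell in 231BoM-1833 (limma, 0 and 0 at an unadjusted p under 0.05). IL12B (line means of 5.27 to 5.41) and IL2 (3.23 to 3.45) had low values, so the count says little about repression. RELB, a subunit of NF-kappaB, had a difference of -0.20 there (adjusted p = 0.315) and fell 1.41-fold in 231BrM-2a (adjusted p = 0.0233), a call lost without either MDA-MB-231 array or without 231BrM-2a replicate 2.

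Among genes for the supply, turnover and uptake of vitamin D and its precursor, 2 of 7 rose and 0 fell in 231BoM-1833 against MDA-MB-231 (4 and 0 at an unadjusted p under 0.05). The shares of all clusters called there were 8.43% higher and 7.38% lower. The list is mixed, so its counts give no direction of supply. CYP2J2, an epoxygenase of fatty acids that can also hydroxylate vitamin D, read 6.37 and 6.21 in MDA-MB-231, 7.75 and 7.67 in 231BoM-1833, and 5.58 and 5.51 in 231BrM-2a, so the lines did not overlap. It rose 2.68-fold in 231BoM-1833 (1.42 ± 0.11, adjusted p = 9.93e-05) and fell 1.68-fold in 231BrM-2a (adjusted p = 0.00183), a gap of 4.5-fold between the derivatives (adjusted p = 2.41e-06). SC5D, which makes the sterol from which skin forms vitamin D, rose 1.73-fold in 231BoM-1833 (adjusted p = 0.00511) and 2.03-fold in 231BrM-2a (adjusted p = 0.000903). In 231BrM-2a, 3 of the 7 rose and 1 fell (3 and 1 at an unadjusted p under 0.05), beside 10.5% and 8.59% of all clusters. Among the 3, DHCR7 rose 1.29-fold (adjusted p = 0.0374). CYP11A1, the enzyme that starts steroid synthesis, rose 1.74-fold there, from 5.11 ± 0.079 to 5.90 ± 0.036 (adjusted p = 0.001). It was also 1.39-fold higher than in 231BoM-1833 (adjusted p = 0.00966), a call lost without 231BrM-2a replicate 1. The uptake receptor genes LRP2 (means of 4.78 to 4.91 over the lines) and CUBN (5.31 to 5.44) did not pass the test in any comparison.

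CYP24A1, CYP27A1 and CYP27B1 are mitochondrial enzymes that draw electrons from ferredoxin. Of 7 measured relatives and redox partners, 0 rose and 2 fell in 231BoM-1833 (1 and 2 at an unadjusted p under 0.05), namely FDX2, a ferredoxin gene, by 1.32-fold (adjusted p = 0.0282) and CYP11B2, the aldosterone synthase gene, by 1.41-fold (adjusted p = 0.0292). Neither call held without either MDA-MB-231 array or without 231BoM-1833 replicate 2, where 0 of the list fell, and 1 fell when any 1 of the others was left out. FDX1, the ferredoxin that serves these enzymes, differed by -0.11 (adjusted p = 0.542). In 231BrM-2a 2 rose and 0 fell (2 and 1 at an unadjusted p under 0.05), CYP11A1 and POR, the microsomal reductase that CYP2R1 uses, by 1.29-fold (adjusted p = 0.0379), and 1 rose when any 1 array of those lines was left out. Between the derivatives 3 were higher in 231BrM-2a (FDX2, CYP11A1 and POR), and 0 were called without 231BrM-2a replicate 1.

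Of 12 measured coregulators of VDR and RXR, 0 rose, 3 fell and 9 did not pass the test in 231BoM-1833 (0 rose and 8 fell at an unadjusted p under 0.05), beside the 7.38% of all clusters called lower. The median was -0.30, and NCOA1 (0.04) and MED1 (0.07) had differences above 0. CARM1, an arginine methyltransferase, fell 1.61-fold (adjusted p = 0.00472), SNW1, which binds VDR, 1.28-fold (adjusted p = 0.0456) and the bromodomain protein gene BRD7 1.28-fold (adjusted p = 0.0442). The count fell to 1 when either MDA-MB-231 array, 231BoM-1833 replicate 2 or either 231BrM-2a array was left out. In 231BrM-2a 1 rose and 0 fell (2 and 1 at an unadjusted p under 0.05), TRIM24, a corepressor of retinoid receptors, by 1.29-fold (adjusted p = 0.0386), and 0 rose without either MDA-MB-231 array or either 231BrM-2a array. Between the derivatives 6 of 12 were higher in 231BrM-2a and 0 lower (7 and 0 at an unadjusted p under 0.05), beside 12.5% and 11% of all clusters. The 6 included TRIM24 (1.58-fold, adjusted p = 0.00182), SNW1 (1.40-fold, adjusted p = 0.00876) and CARM1 (1.37-fold, adjusted p = 0.0158). SNW1 lost this call without either 231BrM-2a array, and CARM1 without 231BoM-1833 replicate 2 or 231BrM-2a replicate 2. That count was 3 without 231BoM-1833 replicate 1 and 2 without 231BoM-1833 replicate 2 or either 231BrM-2a array.

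The other receptors that pair with RXR differed in both directions. Of 10 measured, 2 rose and 2 fell in 231BoM-1833 (2 and 4 at an unadjusted p under 0.05), beside 8.43% and 7.38% of all clusters. RARB, a retinoic acid receptor, read 4.98 and 4.78 in MDA-MB-231, 6.0 and 6.08 in 231BoM-1833, and 4.77 and 4.73 in 231BrM-2a, and rose 2.24-fold in 231BoM-1833 (adjusted p = 0.000355). Both 231BoM-1833 arrays lay above the other 4, and in 231BrM-2a RARB differed from MDA-MB-231 by -0.13 (adjusted p = 0.439). PPARD, a fatty acid receptor, rose 1.53-fold (adjusted p = 0.00892). PPARG, the receptor that drives fat cell formation, fell 1.61-fold (adjusted p = 0.00642), and NR1H3, an oxysterol receptor, 1.57-fold (adjusted p = 0.0077). In 231BrM-2a 2 fell, PPARD (1.86-fold, adjusted p = 0.000907) and PPARA (1.79-fold, adjusted p = 0.000793), both receptors for fatty acids, and 2 rose, the thyroid hormone receptor gene THRB (1.97-fold, adjusted p = 0.00719) and PPARG (1.34-fold, adjusted p = 0.0347). At an unadjusted p under 0.05, 4 of the list rose there and 2 fell. The shares of all clusters called there were 10.5% higher and 8.59% lower. In 231BrM-2a 0 of the list rose without MDA-MB-231 replicate 2 and 1 without either of its own arrays. In 231BoM-1833 1 rose without MDA-MB-231 replicate 2, and 1 fell without either MDA-MB-231 array. By gene, the calls of PPARD, NR1H3 and THRB against MDA-MB-231 were lost without MDA-MB-231 replicate 2 (NR1H3 and PPARD in 231BoM-1833, THRB in 231BrM-2a) and that of PPARG in 231BoM-1833 without MDA-MB-231 replicate 1. In 231BrM-2a PPARG lost its call without MDA-MB-231 replicate 2 or either 231BrM-2a array. Between the derivatives, 5 were higher in 231BrM-2a and 3 lower (5 and 3 at an unadjusted p under 0.05), beside 12.5% and 11% of all clusters. PPARD was 2.85-fold lower (adjusted p = 2.72e-05), RARB 2.45-fold lower (adjusted p = 6e-05) and PPARG 2.16-fold higher (adjusted p = 0.000204). The 5 higher genes numbered 3 without either MDA-MB-231 array or 231BrM-2a replicate 1, and 2 without 231BoM-1833 replicate 2 or 231BrM-2a replicate 2.

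Retinoic acid is made and broken down by enzymes that parallel those of vitamin D. Of 12 measured genes of that pathway, 1 rose and 0 fell in 231BoM-1833 (1 and 0 at an unadjusted p under 0.05), ALDH1A3, a retinaldehyde oxidase, by 1.42-fold (adjusted p = 0.0275), and 0 without either MDA-MB-231 array or 231BoM-1833 replicate 2. CYP26A1 and CYP26B1, which inactivate retinoic acid as CYP24A1 inactivates calcitriol, had differences of -0.25 (adjusted p = 0.204) and -0.11 (adjusted p = 0.593) in that line. In 231BrM-2a 5 rose and 1 fell (5 and 1 at an unadjusted p under 0.05), beside 10.5% and 8.59% of all clusters. PLAAT4, a gene induced by retinoids, rose 2.58-fold (adjusted p = 0.000188), DHRS3, which returns retinaldehyde to retinol, 2.41-fold (adjusted p = 0.00128) and CYP26B1 1.53-fold (adjusted p = 0.0115, lost without MDA-MB-231 replicate 1 or 231BrM-2a replicate 1). The 5 risers numbered 3 without either MDA-MB-231 array or 231BrM-2a replicate 2. Between the derivatives PLAAT4 (2.74-fold, adjusted p = 8.07e-05), DHRS3 (2.66-fold, adjusted p = 0.000435) and the retinoic acid carrier gene CRABP2 (1.76-fold, adjusted p = 0.00136) were among 4 genes higher in 231BrM-2a. RDH10, a retinol dehydrogenase gene, was lower (1.31-fold, adjusted p = 0.0276), a call lost when any 1 array of either derivative was left out.

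The genes beside CYP24A1 on its chromosome had small differences in 231BoM-1833. Of the 5 nearest measured genes on each side in the RefSeq gene order, 0 rose and 1 fell in 231BoM-1833 (0 and 2 at an unadjusted p under 0.05), and the 10 differences ran from -0.54 to 0.28 with a median of -0.08. BCAS1, the adjacent gene, first found in breast cancer amplifications, read 6.02 and 6.01 in MDA-MB-231 and 5.33 and 5.62 in 231BoM-1833, a fall of 1.46-fold (adjusted p = 0.0229) that was lost without either MDA-MB-231 array or 231BoM-1833 replicate 1. PFDN4, a subunit gene of the prefoldin chaperone on the other side, differed by 0.17 in 231BoM-1833 (limma, adjusted p = 0.413). Where values are low, as for several neighbours, a difference may be compressed. TSHZ2 had means of 4.95 in MDA-MB-231 and 4.90 in 231BoM-1833, DOK5 4.92 and 4.81, and CBLN4 4.78 and 4.72. Values were higher for ZNF217 (9.55 and 9.74), PFDN4 (8.01 and 8.18) and FAM210B (8.64 and 8.47). In 231BrM-2a 2 neighbours rose, ZNF217, a transcription factor gene (0.67 ± 0.10, adjusted p = 0.00219), and PFDN4 (0.54 ± 0.13, adjusted p = 0.0231), and BCAS1 fell (-0.42 ± 0.13, adjusted p = 0.0496). The calls of PFDN4 and BCAS1 there were lost when any 1 array of the lines compared was left out.

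**Figure D4:**
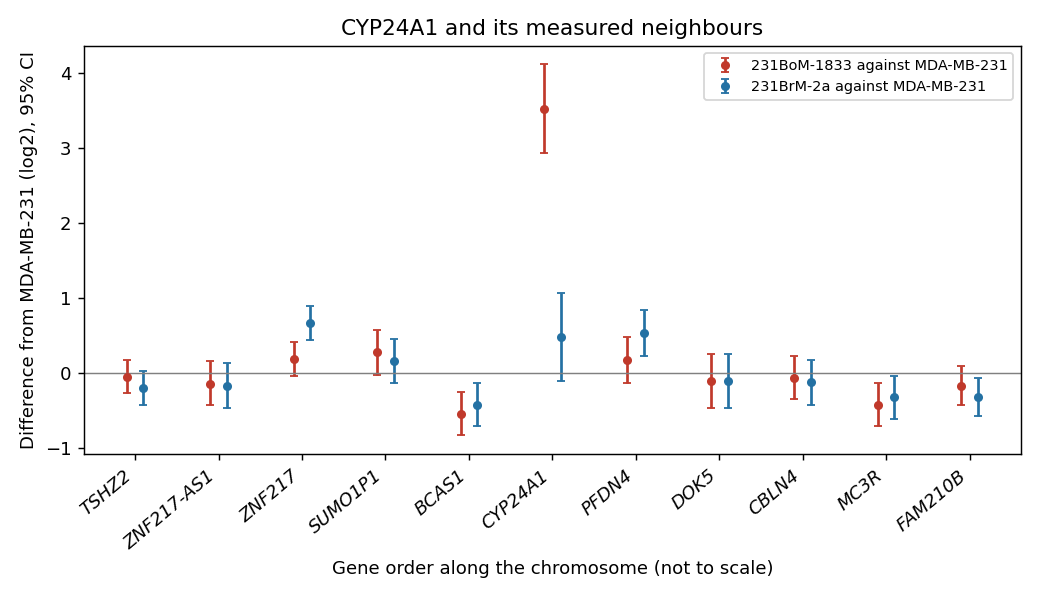
Differences from MDA-MB-231 (log2, with 95% confidence interval) of CYP24A1 and its 5 nearest measured genes on each side, in chromosome order and not to scale. In 231BoM-1833 CYP24A1 stands at 3.52 and its neighbours between -0.54 and 0.28. The CYP24A1 interval is a description and not a test, and several neighbours had low values.

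The genes whose values over the 6 arrays were nearest to those of CYP24A1 were OTULINL, SPARC, GNGT2, F2RL2 and CXCR4. The measure was the Euclidean distance between the 6 values, each less the mean of the MDA-MB-231 arrays, over 18416 other genes, so the list is a description. OTULINL, related to a deubiquitinase, was nearest (distance 0.87), with a mean of 9.72 ± 0.19 on the 231BoM-1833 arrays, 6.61 ± 0.36 on those of MDA-MB-231 and 7.01 ± 0.0045 on those of 231BrM-2a. SPARC, a matricellular glycoprotein gene, was next (0.93). GNGT2, a G protein subunit gene, followed at 1.26, then F2RL2, a protease-activated receptor gene, at 1.29. CXCR4, the chemokine receptor gene, was at 1.71, with 9.62 and 9.55 in 231BoM-1833 against 6.81 and 6.75 in MDA-MB-231. In 231BrM-2a it read 6.09 and 6.58, both below MDA-MB-231. Like CYP24A1, SPARC (6.15 and 7.03), GNGT2 (4.91 and 5.42) and CXCR4 were higher on replicate 2 than on replicate 1 of 231BrM-2a. F2RL2 was lower on replicate 2 (6.12 and 5.79), and OTULINL read 7.01 on both. The distance was taken over these same arrays, so likeness to CYP24A1 on them is favoured by the choice of genes.

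**Figure D5:**
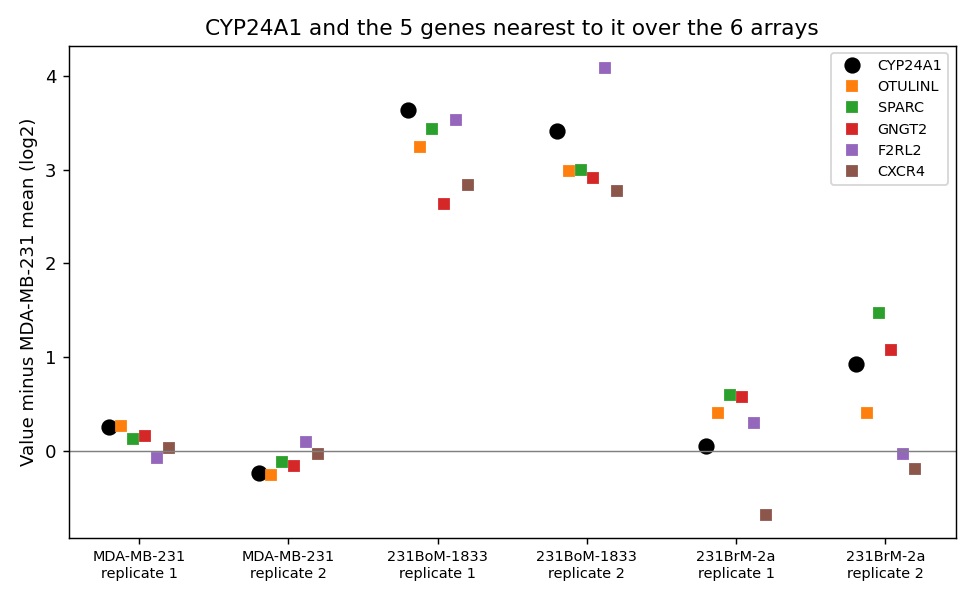
Values of CYP24A1 (black) and the 5 genes nearest to it, each less its MDA-MB-231 mean (log2), on the 6 arrays. All 6 genes stand more than 2 log2 units above MDA-MB-231 on both 231BoM-1833 arrays, and they spread out on the 231BrM-2a arrays. The 5 genes were chosen by their distance to CYP24A1 over these arrays.

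Markers of other cell types that express these genes were read on the same arrays. Of 13 leukocyte markers, listed because CAMP is a neutrophil gene and CYP27B1 is found in macrophages, 0 rose and 0 fell in either derivative against MDA-MB-231 (limma, 2 and 0 at an unadjusted p under 0.05 in 231BoM-1833, 1 and 3 in 231BrM-2a). Their mean value lay between 5.79 and 6.05 on the 6 arrays, and the common leukocyte gene PTPRC between 3.60 and 3.86. LCN2, which epithelial cells also make, had differences of 1.96 in 231BoM-1833 (adjusted p = 0.0547) and 1.82 in 231BrM-2a (adjusted p = 0.0625), with replicate arrays far apart. It read 7.57 and 7.11 in MDA-MB-231, 8.54 and 10.04 in 231BoM-1833, and 10.13 and 8.19 in 231BrM-2a. Leaving out 1 array moved the differences between 1.21 and 2.70 in 231BoM-1833, where it passed without replicate 1 or either 231BrM-2a array. In 231BrM-2a they moved between 0.86 and 2.79, and it passed without replicate 2 or either 231BoM-1833 array. Between the derivatives CD68, a lysosomal gene, was 1.54-fold lower in 231BrM-2a (adjusted p = 0.00389). Without 231BoM-1833 replicate 1, 2 leukocyte markers were called higher in that line. Their part in the member values was not tested. Of 7 kidney tubule markers, listed because kidney is rich in CYP24A1, 0 rose and 0 fell (0 and 0 at an unadjusted p under 0.05 in 231BoM-1833, 0 and 2 in 231BrM-2a), with means of 5.92 and 6.0 in MDA-MB-231 and 5.82 and 5.80 in 231BoM-1833, where CYP24A1 was high.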

How the data were processed

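The deposited values, made by the authors, are on the log2 scale, and the submitters' processing notes name RMA and Affymetrix Expression Console; versions and the genome build are not given in the sources used here. RMA gives the arrays like distributions, which hides any change in the amount of RNA a cell holds. Of 33297 clusters, a platform table named 21214. limma 3.58.1 (R 4.3.3) fitted a mean per line over the 6 arrays, with lmFit and eBayes, two-sided tests, 3 residual and 6.06 prior degrees of freedom, Benjamini-Hochberg adjustment over the 21214 clusters and a threshold of 0.05; the fit was tested on simulated data. The number of arrays limits the precision. The members and gene lists were chosen with earlier results of these data known. For each list and comparison, up to 3 called genes of largest change are named (1 where none was called), beside the members, the sort markers, the CYP24A1 neighbours and the 5 genes nearest to it. TRPV6, S100G, TXNIP, FDX1, CYP26A1, LRP2, CUBN, ESR1, PGR, CDH1, PTPRC, ATP2B1, RDH10, NCOA1 and MED1, further called values of PPARD and PPARG, and CYP26B1 in 231BoM-1833, were added after their values were seen. CDKN1A, DHCR7, IL12B, IL2 and the value of THBD in 231BoM-1833 were also added after their values were seen. Clusters with several symbols were left out of the naming of genes. Alternatives were quantile normalization, leaving out the dimmest clusters, testing all clusters, fitting only the lines compared, another variance model, the mean of a gene's clusters, a replicate block and leaving out single arrays.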

Additional observations from a re-analysis of the deposited data

Results flagged for a closer look

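The derivatives differed from each other, by the test between them, in 3 members. CYP2R1 was lower in 231BrM-2a than in 231BoM-1833, with a change of -0.73 (limma, adjusted p = 0.00715, lower on both arrays). CYP27A1 was higher by 0.71 (adjusted p = 0.00781) and RXRA by 0.33 (adjusted p = 0.045), each on both arrays. The RXRA call held in 4 of 14 alternatives, and those of CYP2R1 and CYP27A1 in 13 of 14 each.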

How the results depend on the processing

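Leaving out 1 array at a time moved the CYP24A1 difference between 3.28 and 3.77 (231BoM-1833 against MDA-MB-231), 0.044 and 0.92 (231BrM-2a against MDA-MB-231) and -3.48 and -2.60 (231BrM-2a against 231BoM-1833). In the same order, the called clusters (3354, 4040 and 4976) ranged over 932 to 2936, 1764 to 4751 and 3001 to 4750, and the called members (1, 3 and 3) over 0 to 0, 0 to 3 and 0 to 3 (at least 1, 2 and 3 at an unadjusted p under 0.05 with limma). The lowest cluster counts came without MDA-MB-231 replicate 2 in the comparisons with MDA-MB-231 and without 231BrM-2a replicate 2 between the derivatives. Members not called changed sign between left-out arrays: CYP27B1 (-0.057 to 0.19 in 231BoM-1833 against MDA-MB-231, -0.032 to 0.22 between the derivatives), VDR (-0.32 to 0.059) and CYP2R1 (-0.063 to 0.33), both in 231BoM-1833 against MDA-MB-231. When clusters without a symbol were tested too, 2220 clusters were called in 231BoM-1833 against MDA-MB-231, with 0 members there and 0 in 231BrM-2a against MDA-MB-231 (1 and 3 at an unadjusted p under 0.05 with limma), where more tests enter the adjustment. With only the arrays of the lines compared, or with the replicate block, 0 members were called in 231BoM-1833 against MDA-MB-231 (1 each at an unadjusted p under 0.05); the cause was not tested. Same-numbered arrays shared little (correlation of deviations 0.036, -0.162 and -0.165). With 2 arrays per line this cannot settle whether the number marks a pairing, and the main fit used none. With the block 2724, 3535 and 4564 clusters were called. A block with the 231BrM-2a numbers exchanged, chosen after seeing the data, called 4468 clusters and 3 members against MDA-MB-231, and 5387 and 4 against 231BoM-1833. Of 287 single-member values under alternatives, 245 kept their direction and side of the threshold, 34 lost the call, 3 gained it and 5 changed sign. Many of these values belong to members without a call in the main fit, which could lose none. Against MDA-MB-231 the calls held in 4 of 13 alternatives for RXRA, 10 of 14 for CYP2R1 and for CYP27A1, and 9 of 14 for RXRB. No background level was given, so differences of dim clusters may be compressed.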
